A study of Homo sapiens with 6 samples.

Results

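The SLC25 genes encode the carriers that move metabolites, nucleotides, phosphate and cofactors across the inner membrane of the mitochondrion. They were taken as all genes of the deposited values whose symbol is SLC25A followed by a number, which gave 47 of 25662 genes. RNA was sequenced from A375, an established human melanoma cell line grown in DMEM with 10% serum. The 3 control libraries came from cells given DMSO alone, and the 3 other libraries came from cells given BMH-21 at 1 µM for 24 hours. The sample titles place the controls at 0 hours, so when they were collected is unclear from the labels. BMH-21 is a small molecule that binds DNA and blocks RNA polymerase I, and the comparison asks which transcripts differ after it.

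As background, SLC25 carriers share a fold built of repeated pairs of membrane helices and mostly work as exchangers, taking a substrate in while releasing another. Together they pass ADP and ATP, phosphate, fuels and cofactors between the cytosol and the matrix, and a few members act in other membranes, such as that of the peroxisome. Their proteins are made in the cytosol, enter through the TOM complex and are placed in the inner membrane by the TIM22 complex.

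Values are TPM, a level per transcript length that the authors deposited, in which each library is scaled to the same total. TPM is therefore relative within a library, and depth is unknown. Of the 47 members, 39 had a mean of at least 1 TPM over the 6 libraries and were tested. The other 8 stayed below it. SLC25A34 had the highest mean among those below (0.769 TPM), and SLC25A27 the lowest among those tested (1.13 TPM). SLC25A18, SLC25A21, SLC25A2, SLC25A41, SLC25A47 and SLC25A48 were each below 0.5 TPM on average, and SLC25A52 was listed at 0 in every library. Changes are log2 differences of TPM + 1 with their standard error, and adjusted p-values are from limma with Benjamini-Hochberg adjustment over all 12481 tested genes. The threshold for a call was 0.05 on the adjusted p. The ± after a TPM value is the standard deviation over 3 libraries.

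The label of the cells was checked against markers. Of 8 melanocyte lineage markers, 4 reached a mean of 1 TPM. SOX10 was at 540 ± 126 TPM in controls and S100B at 77.5 ± 2.71 TPM, while MLANA was at 0 in all 6 libraries and TYR and DCT were at or near 0. Of the 4 that were tested, 2 were called higher with BMH-21 and none lower. S100B rose to 111 ± 0.724 TPM (adjusted p = 0.00171), and SOX10 was not called (adjusted p = 0.196). Markers of dedifferentiated melanoma were mixed. In controls VIM was at 2111 ± 193 TPM, S100A4 at 483 ± 58.0 TPM and AXL at 53.9 ± 8.10 TPM, while EGFR, NGFR and SOX9 were at 1.31 ± 0.570, 0.930 ± 0.196 and 0.443 ± 0.264 TPM. Of the 5 tested, NGFR and S100A4 rose with BMH-21, to 4.01 ± 0.283 and 1190 ± 113 TPM (adjusted p of 0.000333 and 0.000110), and VIM fell to 1303 ± 85.8 TPM (adjusted p = 0.00136). Markers of other cell types were summed over 9 of 10 listed genes and ranged from 40.7 to 42.1 TPM in controls and from 17.4 to 20.6 TPM with BMH-21. ALB was at 0 in every library. Most of the sum was CD68, also a lysosomal protein, with 36.0 to 38.2 TPM in controls and 13.3 to 15.8 TPM with BMH-21. Their part in the SLC25 results was not tested. Over all tested genes the median log2 change was 0.19 for the deposited TPM, and 0.03 once libraries were scaled by medians of ratios. Calls, signs and log2 changes below are set against 0, and the 0.19 was not subtracted from them. In bulk samples, fewer cells of a type and less RNA per cell cannot be told apart.

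After BMH-21, 6 SLC25 genes rose and 7 fell. The rises were led by SLC25A42 and SLC25A20, which carry coenzyme A and acylcarnitines. The falls included SLC25A5 and SLC25A6, the main ADP/ATP carriers of these cells. All counts of members cover the 39 tested genes. The called members were 33.3% of the 39 tested, against 36.2% of all tested genes. Those called higher made up 15.4%, where the background was 23.3%, and those called lower 17.9%, where it was 12.9%. Scaled by medians of ratios, 4 members (10.3%) were called higher and 9 (23.1%) lower. The backgrounds were 15.4% and 18.9% of all tested genes, or 34.4% in either direction. The groups did not overlap in 27 members, 16 of them higher and 11 lower after BMH-21. That is 69.2% of the members, beside 52.3% of all tested genes. By direction it is 41.0% and 28.2% of the members, beside 35.0% and 17.3% of all tested genes. The median log2 change of the members was 0.20, close to the 0.19 of all tested genes, and 20 of 39 members lay above that value.

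**Figure D1:**
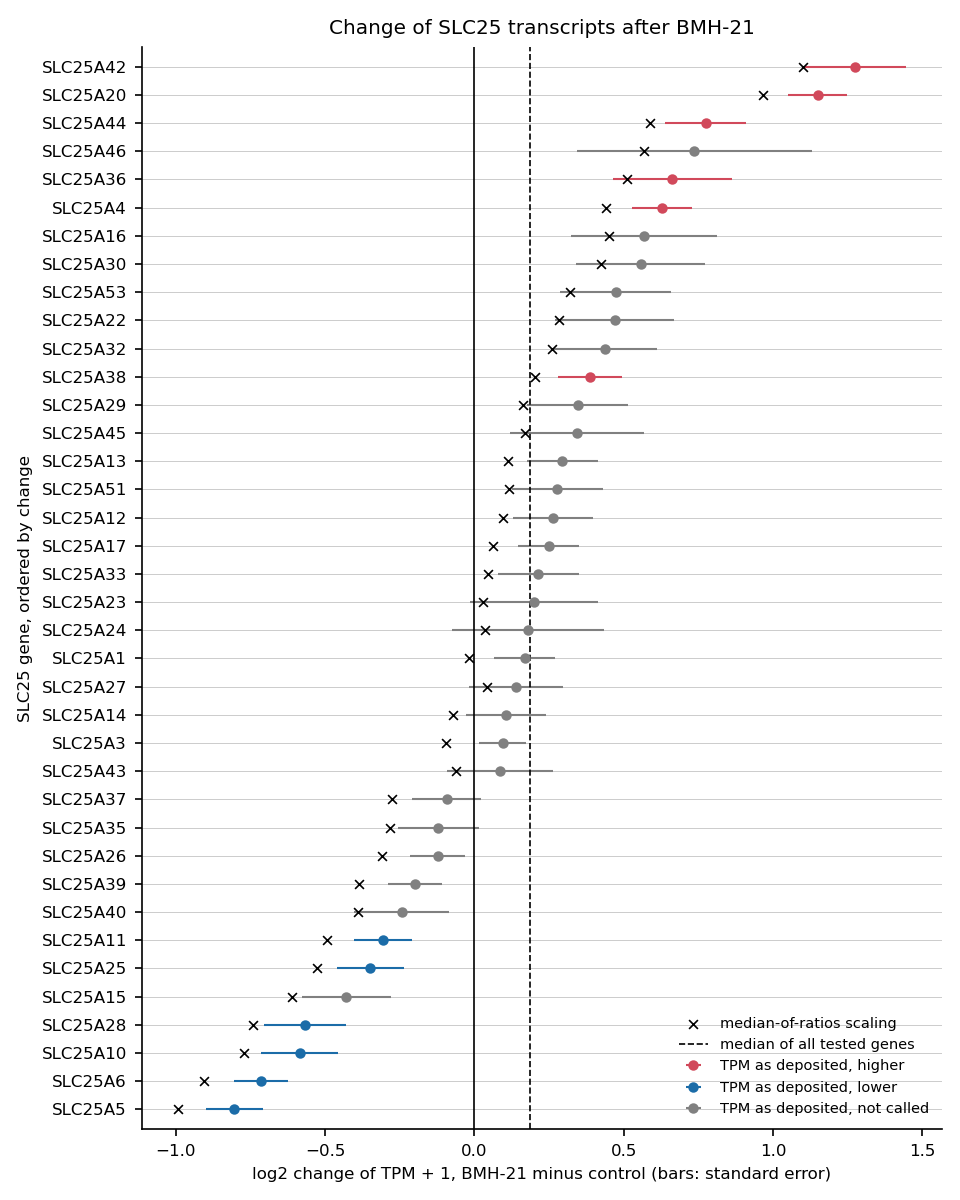
Log2 change of TPM + 1 (BMH-21 minus control, horizontal axis) of 38 of the 39 tested SLC25 genes, with standard errors as bars, red for genes called higher, blue for genes called lower and grey for genes not called; crosses give median-of-ratios scaling. SLC25A42 and SLC25A20 stand highest at 1.28 and 1.15, SLC25A5 lowest at -0.80, and the dashed line marks the median of all tested genes at 0.19.

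Transcript levels of the family were carried by a few members. The summed level of the 47 genes was 3819, 3688 and 3740 TPM in control replicates 1 to 3 and 3238, 3431 and 3211 TPM in BMH-21 replicates 1 to 3, so the groups did not overlap. The phosphate carrier SLC25A3 and the ADP/ATP carriers SLC25A5 and SLC25A6 were the highest members in both groups. The ADP/ATP carriers together made up 41.1% of the family's TPM in controls and 28.8% with BMH-21. Next in order of mean TPM came SLC25A11 (143 TPM), SLC25A39 (104 TPM) and SLC25A1 (99.6 TPM). Another 13 members had a mean of at least 20 TPM, and the other 20 tested members lay between 1.13 and 18.5 TPM.

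**Figure D2:**
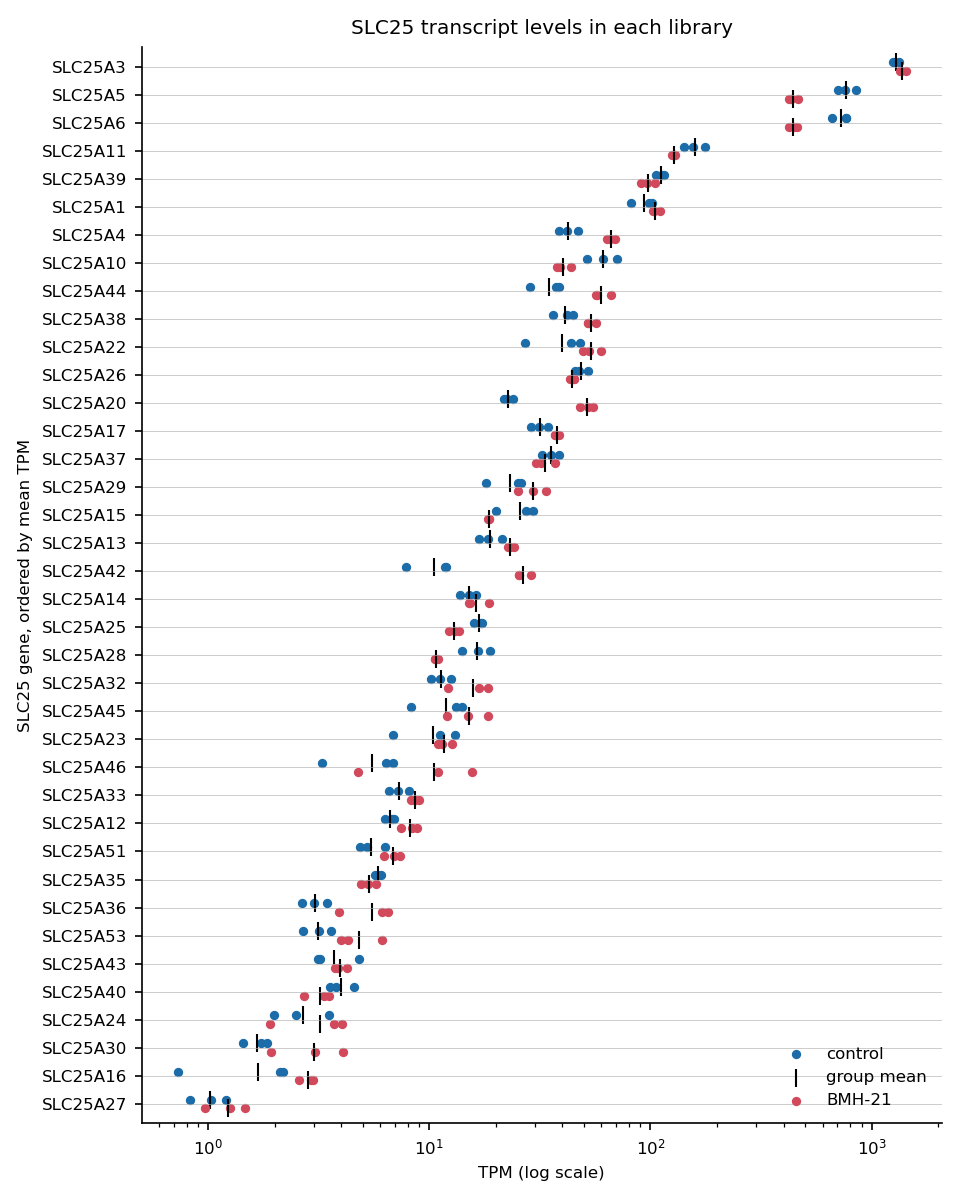
TPM of 38 of the 39 tested SLC25 genes in every library (log axis), with controls in blue, BMH-21 in red and group means as black ticks, ordered by mean TPM. Levels run from 1.13 TPM on average for SLC25A27 to 1328 TPM for SLC25A3, and the red and blue points do not overlap for SLC25A20, SLC25A42, SLC25A5 and SLC25A6.

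The ADP/ATP carriers, which export ATP made in the matrix in exchange for ADP, moved in both directions. SLC25A5, known as the form of dividing cells, was at 849, 757 and 701 TPM in control replicates 1 to 3, and the treated replicates 1 to 3 were at 431, 463 and 424 TPM. Every control lay above every treated library, and the fall was -0.80 ± 0.09 on the log2 scale (adjusted p = 0.000484), a ratio of mean TPM of 0.571. SLC25A6, expressed in most tissues, was at 659, 766 and 762 TPM in control libraries and at 444, 461 and 424 TPM in treated ones. It fell to nearly the same level as SLC25A5 (log2 change -0.71 ± 0.09, adjusted p = 0.000696). SLC25A4, known as the form of heart and skeletal muscle, was far lower, at 46.9, 38.7 and 41.9 TPM in control libraries and at 63.6, 68.8 and 65.7 TPM in treated ones. Every treated library lay above every control, and the rise was 0.63 ± 0.10 (adjusted p = 0.00228). SLC25A4 thus went from 2.76 ± 0.269% to 6.97 ± 0.203% of the summed TPM of the SLC25A4, SLC25A5 and SLC25A6 genes (n = 3 each). SLC25A31, the testis form, was not analysed here.

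**Figure D3:**
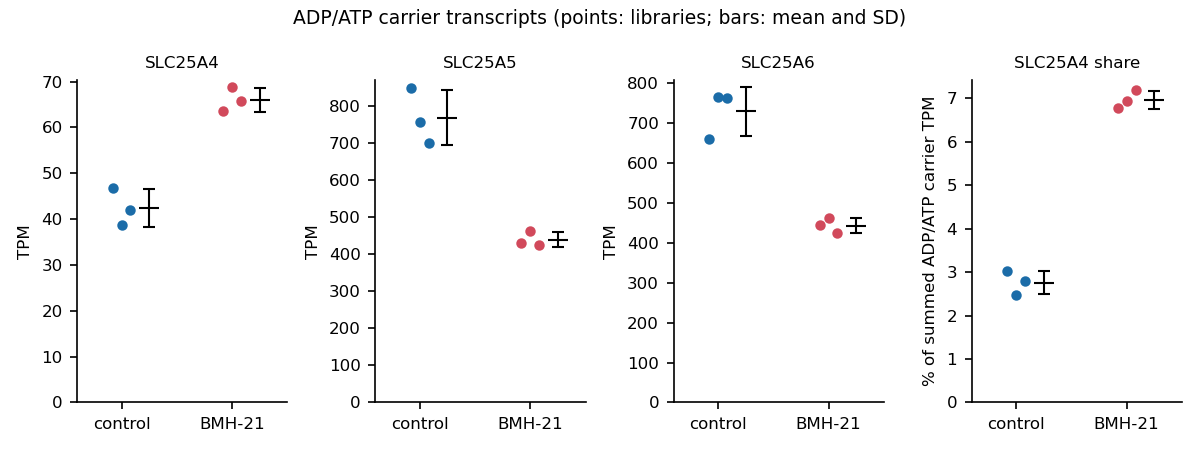
TPM of SLC25A4, SLC25A5 and SLC25A6 and the share of SLC25A4 in their summed TPM (percent), each from 0, with points for the 3 control (blue) and 3 BMH-21 (red) libraries and bars for mean and SD. SLC25A4 rises from a mean of 42.5 to 66.0 TPM while SLC25A5 falls from 769 to 439 TPM and SLC25A6 from 729 to 443 TPM.

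A ratio of genes within a library hardly depends on scaling between libraries. The log2 ratio of SLC25A5 to SLC25A4 (TPM + 0.1) was 4.18, 4.29 and 4.06 in controls and 2.76, 2.75 and 2.69 with BMH-21. The groups did not overlap, and the difference was -1.44 (two-sided exact permutation test, p = 0.1, which is the smallest that 3 against 3 libraries allow, and 0.55 adjusted over 11 pairs). The ratio of SLC25A5 to SLC25A6 was 0.37, -0.02 and -0.12 in controls and -0.04, 0.00 and 0.00 with BMH-21, and these ranges overlapped.

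The 3 ADP/ATP carrier genes are shown by the 250 bases before their RefSeq start (GRCh38.p14), because they belong to the same subfamily and moved in opposite directions. SLC25A4 starts on chromosome 4 (window chr4:185143016-185143265, plus strand), SLC25A5 on chromosome X (chrX:119468194-119468443, plus strand) and SLC25A6 on chromosome X (chrX:1392114-1392363, minus strand). Capitals mark matches, on either strand, to the letters searched. These were GGGCGG for SP1, CCAAT for the box of that name, CCGGAAG for ETS factors, GCATGCGC for NRF1, CACGTG for the E-box, TTTGGCGC and TTTCCCGC for E2F factors, and TATAAA for the TATA box.
SLC25A4: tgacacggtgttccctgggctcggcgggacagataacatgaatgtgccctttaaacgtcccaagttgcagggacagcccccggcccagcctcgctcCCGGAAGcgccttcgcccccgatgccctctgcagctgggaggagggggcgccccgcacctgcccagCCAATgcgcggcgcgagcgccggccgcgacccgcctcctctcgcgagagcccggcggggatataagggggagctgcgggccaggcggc
SLC25A5: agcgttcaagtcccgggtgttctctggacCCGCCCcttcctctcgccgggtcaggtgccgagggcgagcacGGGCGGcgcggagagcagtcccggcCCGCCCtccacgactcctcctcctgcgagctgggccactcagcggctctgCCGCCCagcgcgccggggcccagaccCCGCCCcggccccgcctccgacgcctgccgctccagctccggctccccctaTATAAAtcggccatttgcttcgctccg
SLC25A6: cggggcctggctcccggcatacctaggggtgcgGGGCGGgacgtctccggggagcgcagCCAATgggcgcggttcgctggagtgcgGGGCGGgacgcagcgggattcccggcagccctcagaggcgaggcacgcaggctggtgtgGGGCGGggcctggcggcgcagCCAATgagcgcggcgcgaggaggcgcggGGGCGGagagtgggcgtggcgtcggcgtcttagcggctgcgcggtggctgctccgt
The SLC25A5 window holds 5 GGGCGG matches and a TATAAA, the SLC25A6 window 4 GGGCGG matches and 2 CCAAT, and the SLC25A4 window 1 CCGGAAG and 1 CCAAT, with no match overlapping another. Of 35116 RefSeq windows of this length, 42.6% hold GGGCGG, 32.0% CCAAT, 10.7% TATAAA and 8.52% CCGGAAG. A window was at hand for 33 of the 39 tested members, among them all 6 called higher and 6 of the 7 called lower. Members with a match are given over these 33, then over the 6 called higher and the 6 called lower. CCGGAAG was in 7, 3 and 0 of them. GGGCGG was in 25, 3 and 4, and CCAAT in 16, 4 and 3. CACGTG, in 6.34% of all windows, was in 6, 2 and 0. TATAAA was in 2, 0 and 1, and TTTCCCGC, in 1.39% of all windows, in 2, 0 and 1. GCATGCGC and TTTGGCGC, in 2.63% and 0.550% of all windows, were in 0 of the 33. These are matches of letters, not sites of binding.

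The phosphate carriers moved little. SLC25A3, which brings in the phosphate used by ATP synthase, was at 1324, 1276 and 1251 TPM in control libraries and at 1339, 1424 and 1351 TPM in treated ones. The treated libraries lay just above the controls, but the change was not called (log2 change 0.10 ± 0.08, adjusted p = 0.366) and its sign was negative, at -0.09, with median-of-ratios scaling. SLC25A25, a calcium-regulated exchanger of ATP-Mg for phosphate, was at 17.3, 15.9 and 17.2 TPM in control libraries and at 13.1, 13.6 and 12.2 TPM in treated ones. It fell by 0.35 ± 0.11 (adjusted p = 0.0436), but the call did not hold when control replicate 1 or 3 or any single BMH-21 library was left out (adjusted p of 0.0669 to 0.164). Its relatives SLC25A23 and SLC25A24 had control means of 10.3 ± 3.16 and 2.67 ± 0.786 TPM, treated means of 11.7 ± 0.886 and 3.22 ± 1.15 TPM, and no call.

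Carriers of di- and tricarboxylates fell in part. SLC25A10, which exchanges malate and succinate for phosphate, was at 61.2, 51.8 and 70.6 TPM in control libraries and at 39.0, 43.7 and 38.0 TPM in treated ones. The groups did not overlap, and it fell by 0.59 ± 0.13 (adjusted p = 0.00934). SLC25A11, the oxoglutarate carrier of the malate-aspartate shuttle, was at 142, 156 and 177 TPM in control libraries and at 129, 128 and 126 TPM in treated ones. Its fall of 0.31 ± 0.10 just passed (adjusted p = 0.0402), and the call was lost under 8 of 14 alternatives (adjusted p from 0.0508 to 0.125), among them without control replicate 2 or 3 and without any single BMH-21 library. The citrate carrier SLC25A1, which supplies citrate for lipid synthesis, was at 98.5, 82.0 and 101 TPM in control libraries and at 103, 110 and 103 TPM in treated ones and was not called (adjusted p = 0.226). Its log2 change was 0.17 on deposited TPM and turned to -0.02 under median-of-ratios scaling.

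None of the 3 tested carriers of aspartate and glutamate was called by limma, and 2 had an unadjusted p under 0.05. SLC25A13, the citrin form of the aspartate-glutamate exchanger, was at 21.4, 18.5 and 16.8 TPM in control libraries and at 23.1, 24.1 and 22.7 TPM in treated ones (log2 change 0.29 ± 0.12, adjusted p = 0.0876). It was called as higher without control replicate 1, and was at 0.11 under median-of-ratios scaling (adjusted p = 0.512). The glutamate carrier SLC25A22 was at 48.3, 27.2 and 43.8 TPM in control libraries and at 52.8, 59.5 and 49.7 TPM in treated ones. Control replicate 2 lay well below the others, and the change of 0.47 ± 0.20 was not called (adjusted p = 0.101). SLC25A12, the aralar form, was at 6.67 ± 0.348 and 8.21 ± 0.694 TPM (adjusted p = 0.160). In all these 3 genes the treated libraries lay above the controls, as they did in 35.0% of all tested genes. Under median-of-ratios scaling the log2 changes of SLC25A22 and SLC25A12 were 0.28 and 0.10 (adjusted p of 0.209 and 0.589).

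Among carriers of other amino acids and carnitine, 3 of 6 tested members rose and none fell. Under median-of-ratios scaling 2 rose and 1 fell. Of all tested genes, 23.3% were called higher and 12.9% lower on deposited TPM. SLC25A20, on chromosome 3 from 48856926 to 48898882 (RefSeq, GRCh38.p14), brings acylcarnitines into the matrix for fatty acid oxidation in exchange for free carnitine. It was at 21.8, 23.9 and 22.5 TPM in control libraries and at 52.4, 54.7 and 47.9 TPM in treated ones. Controls and treated libraries were far apart relative to their spread, and the rise was 1.15 ± 0.10 (adjusted p = 9.59e-05), a ratio of 2.27. SLC25A44, on chromosome 1 from 156194104 to 156212796, carries branched-chain amino acids. It was at 38.8, 28.5 and 37.5 TPM in control libraries and at 57.1, 66.0 and 57.0 TPM in treated ones. The groups were well separated (log2 change 0.77 ± 0.14, adjusted p = 0.00350). SLC25A38, which brings in glycine for the first step of haem synthesis, was at 42.0, 36.1 and 44.6 TPM in control libraries and at 52.0, 56.8 and 52.2 TPM in treated ones. Its rise of 0.39 ± 0.11 (adjusted p = 0.0238) was lost with median-of-ratios scaling (0.20, adjusted p = 0.133) and without any single BMH-21 library.

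SLC25A20 had the lowest adjusted p of the family. The 250 bases before its start are shown for that reason, with the same capitals (chr3:48898883-48899132, minus strand, GRCh38.p14).
SLC25A20: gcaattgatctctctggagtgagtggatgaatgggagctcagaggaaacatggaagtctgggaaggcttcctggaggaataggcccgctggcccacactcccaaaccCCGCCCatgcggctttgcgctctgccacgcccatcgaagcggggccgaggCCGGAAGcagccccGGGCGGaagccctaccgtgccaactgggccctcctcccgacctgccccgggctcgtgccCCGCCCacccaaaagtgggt
They hold 3 GGGCGG matches and 1 CCGGAAG. SLC25A15, the ornithine-citrulline exchanger of the urea cycle, was at 29.5, 20.1 and 27.5 TPM in control libraries and at 18.7, 18.7 and 18.4 TPM in treated ones. Control replicate 2 lay close to the treated libraries, and the change of -0.43 ± 0.15 missed the threshold (adjusted p = 0.0556), while it was called with median-of-ratios scaling (-0.61, adjusted p = 0.00407). SLC25A29, a carrier of basic amino acids, was at 25.2, 18.1 and 26.1 TPM in control libraries and at 29.4, 33.9 and 25.3 TPM in treated ones, with overlapping groups (adjusted p = 0.141).

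Carriers of nucleotides and cofactors held the largest rise among the 39 tested members. SLC25A42, on chromosome 19 from 19063994 to 19113030, brings coenzyme A into the matrix. It was at 11.9, 7.85 and 11.8 TPM in control libraries and at 25.4, 28.9 and 25.5 TPM in treated ones. The groups lay far apart, with means of 10.5 and 26.6 TPM, and the rise was 1.28 ± 0.17 (adjusted p = 0.000895), a ratio of 2.52. SLC25A36, a pyrimidine nucleotide carrier, was at 3.44, 2.67 and 3.02 TPM in control libraries and at 6.10, 3.89 and 6.50 TPM in treated ones. It rose by 0.66 ± 0.20 (adjusted p = 0.0328), a call lost under 6 alternatives, among them median-of-ratios scaling and the omission of control replicate 2, control replicate 3, BMH-21 replicate 1 or BMH-21 replicate 3 (adjusted p of 0.0532 to 0.124). Its relative SLC25A33 was at 7.30 ± 0.774 and 8.60 ± 0.342 TPM (adjusted p = 0.247).

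Other cofactor carriers were not called. SLC25A17, a carrier of the peroxisome for coenzyme A and adenine nucleotides, was at 31.5, 34.5 and 28.8 TPM in control libraries and at 37.1, 38.7 and 37.2 TPM in treated ones (adjusted p = 0.0901). The change was 0.25 with all libraries and 0.31 without control replicate 2, where it was called (adjusted p = 0.0261), but 0.06 under median-of-ratios scaling (adjusted p = 0.741). SLC25A26, which brings in the methyl donor S-adenosylmethionine, was at 45.6, 52.4 and 47.4 TPM in control libraries and at 43.1, 45.1 and 45.0 TPM in treated ones, slightly lower in each (adjusted p = 0.327). SLC25A16 went from 1.68 ± 0.819 to 2.83 ± 0.213 TPM, SLC25A32, a folate and flavin carrier, from 11.3 ± 1.20 to 15.8 ± 3.31 TPM and SLC25A51, the NAD carrier, from 5.47 ± 0.766 to 6.83 ± 0.569 TPM, all without a call.

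Of 4 tested carriers of iron and glutathione, 1 fell, and the log2 change of all 4 was below 0. Of all 12481 tested genes, 12.9% were called lower and 4248 had a log2 change below 0. SLC25A28, mitoferrin 2, brings iron into the mitochondria of most cell types. It was at 16.5, 14.0 and 18.8 TPM in control libraries and at 10.9, 10.6 and 10.6 TPM in treated ones. It fell by 0.57 ± 0.14 (adjusted p = 0.0139), and the call was lost without BMH-21 replicate 1 or 3 (adjusted p of 0.0550 and 0.0538). SLC25A37, mitoferrin 1, known from erythroid cells, was at 38.5, 32.3 and 35.5 TPM in control libraries and at 30.5, 37.0 and 32.1 TPM in treated ones, with overlapping groups (adjusted p = 0.547). The log2 ratio of SLC25A28 to SLC25A37 was -1.21, -1.20 and -0.92 in controls and -1.47, -1.79 and -1.60 with BMH-21, without overlap (exact permutation p = 0.1, the smallest possible, and 0.55 adjusted over 11 pairs). SLC25A39, which brings glutathione into the matrix, was at 113, 106 and 115 TPM in control libraries and at 96.1, 105 and 90.2 TPM in treated ones. Its change of -0.20 ± 0.09 was not called (adjusted p = 0.116). It was called lower under median-of-ratios scaling (-0.39, adjusted p = 0.0174). Its relative SLC25A40 went from 3.97 ± 0.527 to 3.20 ± 0.429 TPM (adjusted p = 0.260).

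**Figure D4:**
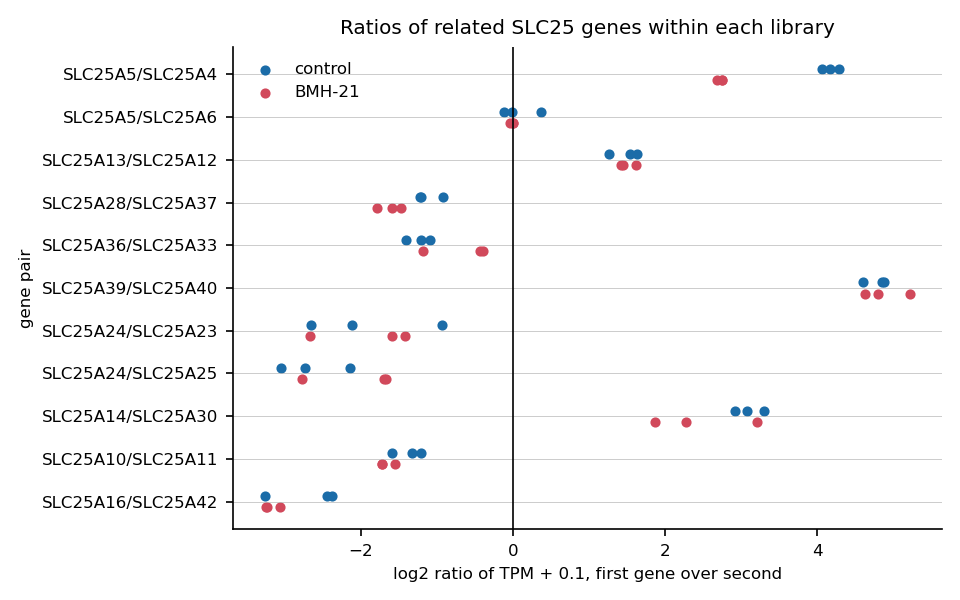
Log2 ratio of TPM + 0.1 within each library for 11 pairs of related SLC25 genes, first gene over second, with controls in blue and BMH-21 in red. Red and blue points are apart for SLC25A5 over SLC25A4 (mean 4.17 against 2.73) and for SLC25A28 over SLC25A37 (mean -1.11 against -1.62), and overlap in the other 9 pairs.

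Of 14 pairs of related carriers listed, 11 had both genes tested, and the ratio did not overlap between groups in 2 of them, those of SLC25A5 with SLC25A4 and of SLC25A28 with SLC25A37. No pair could pass the adjusted threshold with 3 libraries a group. The remaining tested members belong to the relatives of uncoupling proteins (SLC25A14, SLC25A27 and SLC25A30) or have no settled substrate or act in the outer membrane (SLC25A35, SLC25A43, SLC25A46 and SLC25A53). SLC25A14 was the highest of them, at 15.1 ± 1.28 TPM in control libraries and 16.3 ± 2.04 TPM in treated ones. SLC25A35 was at 5.86 ± 0.175 and 5.31 ± 0.409 TPM, SLC25A43 at 3.72 ± 0.962 and 3.95 ± 0.259 TPM, and SLC25A53 at 3.14 ± 0.447 and 4.80 ± 1.16 TPM, in the same order. None of these 7 was called by limma (2 had an unadjusted p under 0.05), nor was SLC25A45, which was at 11.8 ± 3.13 and 15.2 ± 3.26 TPM (adjusted p = 0.258).

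Replicate spread differed between members. The coefficient of variation over 3 libraries had a median of 12.7% in controls and 7.55% with BMH-21 over the 39 tested members. SLC25A46, an outer membrane protein of mitochondrial dynamics, had the widest spread after BMH-21, with 10.9, 4.78 and 15.7 TPM against 3.28, 6.34 and 6.88 TPM in controls. Its log2 change was 0.74 ± 0.39 (adjusted p = 0.174) with all libraries. With 1 library left out it ran from 0.40 without BMH-21 replicate 3 (adjusted p = 0.459) to 1.17 without BMH-21 replicate 2 (adjusted p = 0.0214), the one such omission that gave a call. SLC25A30 went from 1.44, 1.73 and 1.85 TPM to 3.05, 1.93 and 4.09 TPM, and SLC25A32 from 12.6, 10.2 and 11.1 TPM to 16.9, 12.1 and 18.5 TPM. These genes too were lowest in BMH-21 replicate 2 among treated libraries, and both were called as higher without it (adjusted p of 0.0180 and 0.0213). Leaving out any other single library gave no call, with log2 changes down to 0.37 and 0.32 without BMH-21 replicate 3. Libraries of both groups differed in how their levels followed transcript GC content. Deviations from the group mean followed transcript GC content with a Spearman's rho of -0.32, 0.62 and -0.60 in BMH-21 replicates 1 to 3 over 10864 genes, and of -0.39, 0.63 and -0.53 over the 39 members. In control replicates 1 to 3 the values were 0.14, -0.26 and 0.23 over the same genes, and 0.13, -0.40 and 0.47 over the members. Deviations of 3 libraries from their mean sum to 0, so the values within a group are tied to each other and single out no library. BMH-21 replicate 2 was the highest treated library in 26 of 39 members, and control replicate 2 was the lowest control in 25 of 39. Control replicate 2 also had 7.61% of its TPM in mitochondrial genes, where the other 5 libraries had 10.9% to 14.6%, and a size factor of 0.851, where theirs were 0.988 to 1.08. Leaving out control replicate 2 together with BMH-21 replicate 2 gave 12 members called higher and 8 called lower. Counts over all 12481 tested genes also grew, to 3593 higher and 2200 lower from 2908 and 1611 with all libraries. The part of GC content in these differences was not tested.

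Reads could be shared with other genes at some loci. Exons of 15 of the 39 tested members overlap those of a gene on the opposite strand in GENCODE 29 (GRCh38), and whether the counting used strand is not given in the sources used here. Called members among them include SLC25A5, with SLC25A5-AS1 at a mean of 0.998 TPM, SLC25A11, with RNF167 at 115 TPM, and SLC25A25, with NAIF1 at 14.8 TPM. Pseudogenes named after SLC25 genes had 20 rows, with a highest mean of 1.89 TPM, and where reads are shared with such copies a member's level is uncertain.

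Genes around the carriers moved in both directions, by lists that were drawn up beside the family. Over all tested genes, 23.3% were called higher and 12.9% lower, and 15.4% and 18.9% under median-of-ratios scaling. Of 3 tested family genes under other symbols, limma called none higher (1 with no filter on low values) and 2 lower, also under median-of-ratios scaling, and 1 fell without control replicate 3, BMH-21 replicate 1 or BMH-21 replicate 3. UCP2, an uncoupling protein relative, went from 8.55 ± 1.34 to 4.28 ± 0.973 TPM (adjusted p = 0.00850), and MTCH1, an outer membrane protein, from 107 ± 9.83 to 83.9 ± 3.02 TPM (adjusted p = 0.0217), a call lost without control replicate 3, BMH-21 replicate 1 or BMH-21 replicate 3. MTCH1 was chosen for mention after its values were seen. MTCH2, the highest, was at 203 ± 15.7 and 183 ± 4.11 TPM (adjusted p = 0.217). Of 16 genes of carrier import through TOM and TIM22, 2 rose and 3 fell, with 6 falling under median-of-ratios scaling. TIMM8B, a chaperone of the space between the membranes, rose from 155 ± 22.0 to 247 ± 12.7 TPM (adjusted p = 0.00259), and TIMM10, part of the chaperone that guides carriers to TIM22, fell from 177 ± 25.5 to 110 ± 7.28 TPM (adjusted p = 0.00330). TOMM7, the highest of this list, was at 692 ± 82.7 and 567 ± 13.1 TPM (adjusted p = 0.0578). It was called lower when control replicate 3 was left out, and also under median-of-ratios scaling.

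Of 19 other channels and carriers of mitochondrial membranes, 1 rose and 3 fell. Quantile normalization gave 5 that fell and median-of-ratios scaling gave 6. Only 1 fell with no filter on low values or when BMH-21 replicate 1 or 3 was left out. The count that rose was 2 without BMH-21 replicate 2. SFXN3, a sideroflexin, rose from 83.6 ± 6.97 to 144 ± 4.91 TPM (adjusted p = 0.000453), while its relative SFXN2 fell from 21.0 ± 0.987 to 8.43 ± 1.61 TPM (adjusted p = 0.000571). VDAC1, the outer membrane channel and the highest of the list, was at 242 ± 27.8 and 257 ± 6.90 TPM (adjusted p = 0.471). Of 30 tested enzymes that make or use the substrates of the carriers, 4 rose and 7 fell. These counts were 2 and 10 under median-of-ratios scaling, and 1 rose without BMH-21 replicate 1. IDH2, which turns isocitrate into oxoglutarate in the matrix, fell from 54.9 ± 5.76 to 9.28 ± 1.31 TPM (log2 change -2.45 ± 0.14, adjusted p = 1.26e-05). MDH2, the highest, was at 434 ± 46.4 and 487 ± 48.9 TPM (adjusted p = 0.265). CPT2, which moves the acyl groups that SLC25A20 delivers from carnitine to coenzyme A, was also chosen for mention after its values were seen. It rose from 28.8 ± 3.24 to 46.0 ± 1.48 TPM (adjusted p = 0.00265), and CPT1A, which makes the acylcarnitines, was at 14.3 ± 3.85 and 16.4 ± 0.807 TPM (adjusted p = 0.389). Of 10 tested regulators of mitochondrial gene expression, limma called none higher and 1 lower, where at unadjusted p under 0.05 there were 2. Under median-of-ratios scaling or quantile normalization 3 were lower. MYC, a transcription factor of growth, went from 12.5 ± 2.88 to 8.38 ± 0.188 TPM (adjusted p = 0.0485), and its call was lost under 7 of 14 alternatives, among them without control replicate 1 or 3 and without any single BMH-21 library. ESRRA, a nuclear receptor of mitochondrial genes and the highest of this list, was at 59.8 ± 6.67 and 63.5 ± 3.60 TPM (adjusted p = 0.531).

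Longer transcripts lay higher among the changes. Over the 39 tested members, the log2 change had a Spearman's rho of 0.43 with the length and -0.28 with the GC content of the longest coding transcript. Over the 10864 tested genes with such a transcript the values were 0.17 and -0.14. These are descriptions across genes of the same 6 libraries.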

How the data were processed

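RNA of 3 control and 3 BMH-21 libraries of A375 cells was sequenced. Per the labels' protocols, ribosomal RNA was removed with a Ribo-Zero kit and cDNA was primed with random hexamers, while the labels also name polyadenylated RNA. The authors deposited TPM per gene symbol. STAR, Salmon and the GRCh38 build are named in, and known only per, the submitters' processing notes. Versions, annotation and strand setting were not given there. The 6 columns sum to between 989360 and 990760. TPM keeps no depth, so no counting interval is given.

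From TPM, log2(TPM + 1) was computed where the mean over 6 libraries reached 1 TPM. Treated and control libraries entered limma (version 3.58.1, R 4.3.3) with an empirical Bayes variance trend, two-sided, with Benjamini-Hochberg adjustment over all tested genes. The code was tested on simulated data. Ratios of related genes used log2(TPM + 0.1) and exact permutation tests over libraries (scipy 1.17.1). Groups come from the sample titles and treatment labels. The limma p-values set each group difference against the spread between these libraries, adjusted by the variance trend over all tested genes. Replicates are described as biological without saying whether they are separate cultures, so whether that spread covers separate cultures is unknown. Named are all called members, all with a mean of at least 20 TPM, the genes of the listed pairs and, per related list, the largest called rise and fall and the highest gene. The members and lists were chosen with earlier results of these data known. Gene starts and promoter windows are from RefSeq (GRCh38.p14), transcripts and exon overlaps from GENCODE 29. Alternatives changed the pseudocount, the filter, the scaling, the libraries and the replicate block. Of the genes this rule and the marker lists name, 3 are not reported here, while counts over members and lists include them.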

Additional observations from a re-analysis of the deposited data

How the results depend on the processing

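Of the 13 called SLC25 genes, 8 kept their call under all 14 alternatives, among them SLC25A4, SLC25A5, SLC25A6, SLC25A10, SLC25A20, SLC25A42 and SLC25A44. The count of members called higher was 12 without both number 2 libraries, against 6. For all tested genes it was 3593, against 2908. Leaving out 1 library at a time gave 4 to 8 higher and 4 to 7 lower, with 4 lower without BMH-21 replicate 1 and without BMH-21 replicate 3. Leaving out 1 library gave medians of 0.124 to 0.247 for the members and 0.117 to 0.217 for all tested genes. With median-of-ratios scaling the median log2 change was 0.0429 for the members and 0.0253 for all tested genes, the count of all genes called higher was 1928 against 2908, and 27 genes of the related lists fell against 16. That count of higher genes was 1673 to 2816 with 1 library left out, with the lowest value without BMH-21 replicate 1 and 1761 without BMH-21 replicate 3. In the related lists 4 to 7 genes rose and 11 to 18 fell with 1 library left out, with 4 rising without BMH-21 replicate 1. Leaving out control replicate 2 gave 6 members higher and 7 lower. The cause of these shifts was not tested.

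Members that were not called changed sign in places. With median-of-ratios scaling the log2 change was -0.0189 for SLC25A1, -0.0719 for SLC25A14, -0.0940 for SLC25A3 and -0.0630 for SLC25A43. With quantile normalization it was -0.0583 for SLC25A14, -0.00782 for SLC25A24, -0.0193 for SLC25A27 and -0.0877 for SLC25A43. Without both number 2 libraries it was -0.0485 for SLC25A14, -0.0982 for SLC25A23 and -0.0212 for SLC25A45. Without single libraries SLC25A23 ranged from -0.0432 to 0.375 and SLC25A43 from -0.00126 to 0.247, both lowest without control replicate 2. The log2 ratio difference without both number 2 libraries was -0.452 for SLC25A10 over SLC25A11 (against -0.288), 0.875 for SLC25A24 over SLC25A23 (against 0.00557) and 1.21 for SLC25A24 over SLC25A25 (against 0.596). The difference for SLC25A5 over SLC25A4 stayed between -1.50 and -1.39 with 1 library left out.

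Deviations of same-numbered control and BMH-21 libraries had correlations of -0.045, -0.340 and -0.078 for numbers 1 to 3. Those of differently numbered libraries ran from -0.306 to 0.334. Each deviation is from the mean of its own group, so these values are tied to each other. They cannot show whether the numbers pair libraries. A replicate block gave 5 members higher and 5 lower, 2008 and 1215 of all genes, and 5 and 11 genes of the related lists. TPM gives no read totals, so what depth limits cannot be stated per gene.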
